A study of Mus musculus with 6 samples.

Results

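Semaphorins are ligands that steer the movement and shape of cells, and plexins and neuropilins are the receptors that bind them. Earlier results of these data were known when these 3 gene families were chosen. Their members were taken by symbol (Sema3 to Sema7, Plxna to Plxnd, Nrp1 and Nrp2), by a rule that used no measured value. This gave 34 of the 53342 genes in the table: 20 semaphorin ligands, 11 receptors (9 plexins and 2 neuropilins) and 3 antisense transcripts of the Plxna4 locus. They were measured by whole-transcriptome sequencing of 3T3L1 cells, a clonal mouse line of fibroblast-like cells that turns into fat cells under hormones.

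The 6 samples fell into 3 groups of 2. The LTK-14A cells were differentiated in the presence of LTK-14A, which the labels call a butyrylation inhibitor. The DMSO cells were differentiated in the presence of its solvent, and the untreated cells without either. All 3 groups were grown in DMEM with 10% foetal bovine serum. From the second day after confluence they received insulin at 1 µg/ml, IBMX at 0.5 mM and dexamethasone at 1 µM for 2 days, and then insulin alone until lipid droplets had formed. The sources used here state neither the dose of LTK-14A nor when it was added or when cells were collected. Nothing in the labels ties the 2 samples of a group to separate cultures, so p-values reflect the spread between samples that may be technical replicates.

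Class 3 semaphorins are secreted and usually signal through a neuropilin, which binds the ligand, together with a class A plexin, which carries the signal into the cell. Semaphorins of classes 4, 5 and 6 span the membrane, class 7 is held by a lipid anchor, and most of these bind plexins directly. Plexins act on small GTPases and the actin cytoskeleton. The neuropilins also bind VEGF. Plxnd1 has been linked to the distribution of visceral fat in zebrafish.

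Values are normalized values, back-calculated from the deposited log10 values. Summed over all genes they came to between 6122687 and 7091007 per library, and each library listed 21550 to 22289 genes above 1. Depth, expressed as the sum divided by the smallest common step of a library, was 2738409 to 3571855 steps for LTK-14A and DMSO, against 5340888 and 6385649 steps for untreated cells, so low members are less precise in LTK-14A and DMSO cells. Untreated replicate 2 stood apart: the ribosomal RNA loci Gm26917 and Gm42418 took 16.4% of its total, against 8.60% to 10.6% in the other 5 libraries. The summed value of 12 adipocyte markers was 34914 and 37447 in LTK-14A cells, 96983 and 90693 in DMSO cells, and 107206 and 79506 in untreated cells. Most of this sum was Lpl, at 31156 and 33068 in LTK-14A cells, 58040 and 52834 in DMSO cells, and 62188 and 44746 in untreated cells. Adipoq, which encodes the fat-cell hormone adiponectin, stood at 273 and 300.0 in LTK-14A cells, 5648 and 5364 in DMSO cells, and 6587 and 4802 in untreated cells. All 12 markers passed the test as lower in LTK-14A than in DMSO cells, and Lep, at 0 in LTK-14A replicate 1, was the only one at 0 in an LTK-14A library. The median log2 fold change of the 12 markers was -4.02, and Lpl changed least, by -0.79.

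The cells carried much more receptor than ligand message. Receptors took the first 5 places of the 31 coding members by level, where a level is the normalized value per kilobase of exon. Averaged over all 6 libraries, the level was 373.6 for Plxna1, 280.8 for Plxnb2, 266.0 for Plxnd1, 163 for Nrp2 and 69.7 for Nrp1. By the same pooled mean the highest ligands were Sema3c at 56.5, Sema3g at 54.0, Sema4b at 50.6, Sema3f at 44.2 and Sema6d at 39.8 per kilobase. The order of the ligands differed between groups: Sema3g averaged 6.45 in LTK-14A cells, 51.4 in DMSO cells and 104 in untreated cells, and Sema3c ranked 2 and 1 in LTK-14A cells, 1 and 2 in DMSO cells, and 3 and 4 in untreated cells. Plxna1, Plxnb2 and Plxnd1 together made up 93.9% to 95.2% of the summed plexin level in each library. Plxna1 is a partner of neuropilins for class 3 ligands, Plxnb2 a receptor for class 4 ligands, and Plxnd1 a receptor for Sema3e and Sema3c.

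Several members were at or near 0. Sema3e, the ligand that Plxnd1 binds without a neuropilin, was at 0 in all 6 libraries, as were Sema5b and the antisense transcripts Plxna4os2 and Plxna4os3. Sema3d and Sema4d, a ligand of Plxnb1, each had a normalized value of 2.15 in DMSO replicate 1 and 0 elsewhere. Plxna4os1 had 1.11 in untreated replicate 2 and 0 elsewhere. A 0 in this table stands for a normalized value of at most 1, so the genes at 0 in all 6 libraries were not detectable at this depth. The remaining 27 members, 16 ligands and all 11 receptors, reached a value of 1 in 2 or more libraries and were tested.

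**Figure D1:**
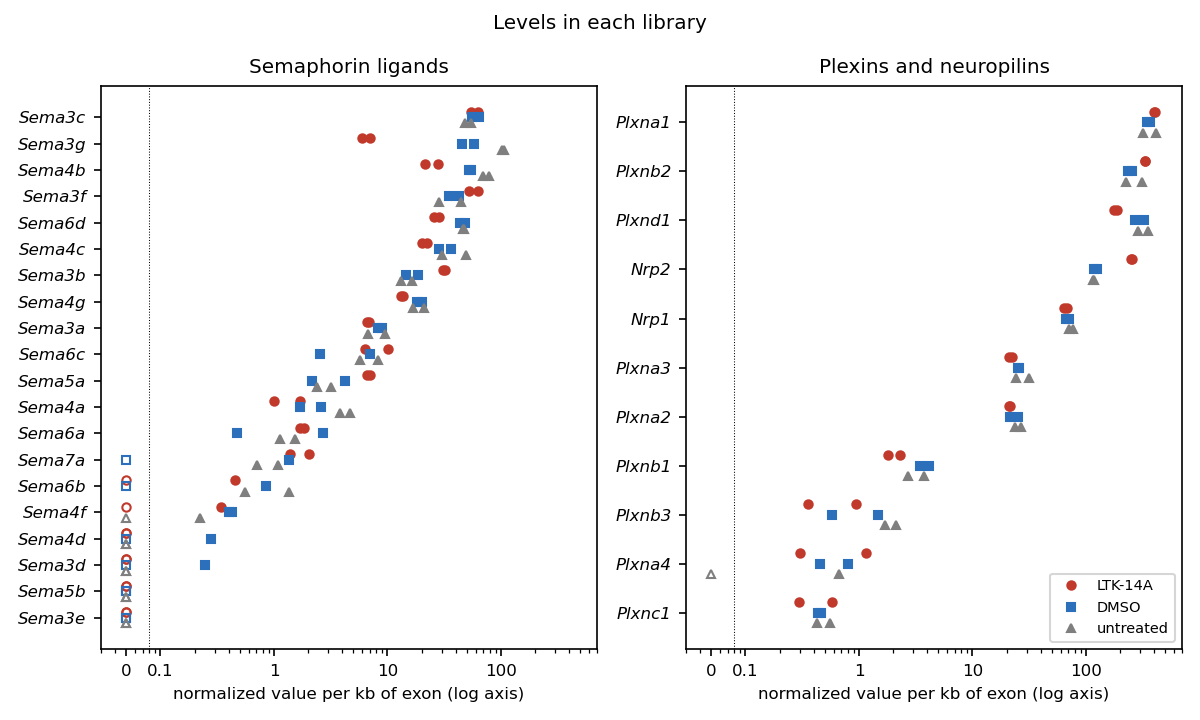
Normalized value per kilobase of exon (log axis) of the 20 ligands and 11 receptors in each of the 6 libraries, ordered by mean level, with open symbols left of the dotted line for values of 0. Plxna1, Plxnb2, Plxnd1 and Nrp2 stand above all ligands in every library, and the LTK-14A points of Sema3g lie far left of the others.

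LTK-14A cells were set against DMSO cells to ask what the compound changed beyond its solvent. Nrp2 and Sema3b were higher, and Sema3g, Sema4b, Sema6d and Plxnd1 were lower. Sema3g, a secreted ligand of Nrp2, differed most, by -2.95 on the log2 scale. These were 6 of the 27 tested members (22.2%), against 10.6% of all 24139 genes tested (limma, Benjamini-Hochberg adjusted p below 0.05 over all genes, two-sided). By direction, 2 members were higher, against 3.98% of all genes, and 4 were lower, against 6.58%. Among genes with a mean of at least 20, 7 of 19 members passed, against 24.4% of 13179 genes. The share of all genes thus depends on the filter, and the shares set beside the lists below are over all 24139 genes. Without the variance trend only Sema3g and Nrp2 passed among the members, with 4.99% of all genes. The median log2 fold change was -0.14 over the 27 members and -0.05 over all genes. In bulk RNA, fewer cells that express a gene and less of its RNA per cell cannot be told apart. The adipocyte marker sum given above moved with these groups, and its part in each result below was not tested.

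Among the ligands, 1 of 16 tested rose and 3 fell, with a median log2 fold change of -0.33. Sema3g (ENSMUSG00000021904, chr14:31217860-31230352 on the + strand, mm10) encodes a secreted class 3 semaphorin. It had normalized values of 26.8 and 31.8 in LTK-14A cells, against 207 and 260 in DMSO cells. The untreated cells had 486 and 460. All 3 groups were thus separate, with LTK-14A lowest, DMSO between and untreated highest. Sema3g was lower in LTK-14A than in DMSO cells by a log2 fold change of -2.95 ± 0.18 (SE, n = 2 each; limma adjusted p = 0.000173). Among the 20 ligands its rank by level was 11 and 9 with LTK-14A, 4 and 1 with DMSO, and 1 and 1 untreated. Its share of the summed ligand level was 2.20% and 2.63% in LTK-14A cells, 13.5% and 16.8% in DMSO cells, and 26.9% and 23.9% in untreated cells.

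Sema4b (ENSMUSG00000030539, chr7:80186841-80226527, + strand) encodes a membrane-bound class 4 semaphorin. It had 120 and 157 in LTK-14A cells and 305 and 296 in DMSO cells, with 389 and 445 in untreated cells. The groups were again separate and in the same order as for Sema3g. Sema4b was lower in LTK-14A than in DMSO cells by a log2 fold change of -1.12 ± 0.17 (SE, n = 2 each; limma adjusted p = 0.00684). This call was lost in 3 of the 4 fits that left out 1 LTK-14A or DMSO library (adjusted p up to 0.0744).

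Sema6d (ENSMUSG00000027200, chr2:124089969-124667770, + strand) encodes a membrane-bound ligand of Plxna1. It had 269 and 300.0 in LTK-14A cells and 506 and 462 in DMSO cells, with 497 and 488 in untreated cells. Here the DMSO and untreated values overlapped and the LTK-14A values lay below both. Against DMSO the log2 fold change was -0.77 ± 0.13 (SE, n = 2 each; limma adjusted p = 0.0106). It did not pass without any 1 of the 4 LTK-14A and DMSO libraries (adjusted p between 0.064 and 0.115).

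Sema3b (ENSMUSG00000057969, chr9:107597674-107609229, - strand) encodes a secreted ligand of the neuropilins and was the ligand that rose. It had 153 and 148 in LTK-14A cells and 69.9 and 89.6 in DMSO cells, with 62.7 and 78.0 in untreated cells. The DMSO and untreated values overlapped, and both LTK-14A values lay above them. Sema3b rose by a log2 fold change of 0.92 ± 0.22 (SE, n = 2 each; limma adjusted p = 0.0373). It did not pass without any 1 of the 4 LTK-14A and DMSO libraries (adjusted p between 0.105 and 0.20).

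**Figure D2:**
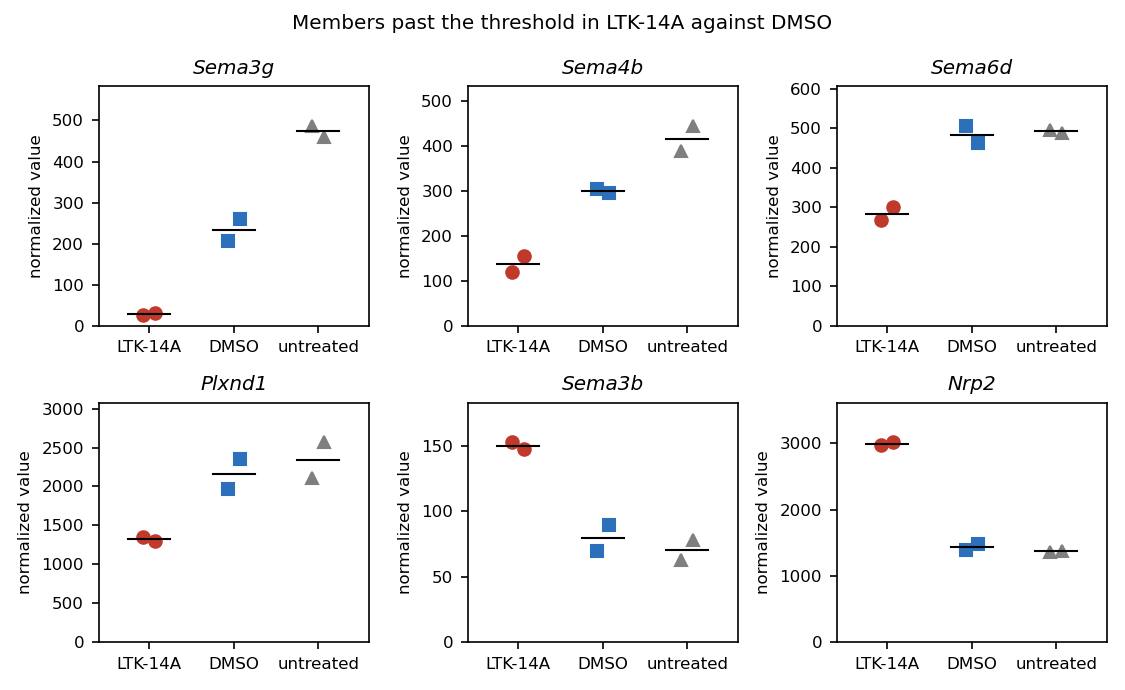
Normalized values of the 6 members that passed in LTK-14A against DMSO, 1 point per library and a line at the group mean (n = 2 each), with each axis starting at 0. For Sema3g and Sema4b the DMSO points lie between the other groups, while for the other 4 members they lie at or near the untreated points.

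The other highly expressed secreted ligands did not pass. Sema3c, which binds both neuropilins and Plxnd1, had 443 and 391 in LTK-14A cells and 457 and 400 in DMSO cells, with 388 and 345 in untreated cells. The LTK-14A and DMSO values overlapped, and the log2 fold change was -0.04 ± 0.14 (SE; limma adjusted p = 0.91). Sema3f, a ligand of Nrp2, had 326 and 273 in LTK-14A cells and 179 and 221 in DMSO cells, with 148 and 230 in untreated cells. Both LTK-14A values lay above the other 4, but the log2 fold change of 0.58 ± 0.23 did not pass (SE; limma adjusted p = 0.166).

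Sema3b and Sema3f lie in the same orientation on chromosome 9 with 5 other annotated genes between them. Gnai2, which encodes a G protein subunit, had 2120 and 2002 in LTK-14A cells and 1487 and 1510 in DMSO cells, a log2 fold change of 0.46 that did not pass (limma adjusted p = 0.0846). The unnamed loci Gm19721 and A930036K24Rik had log2 fold changes of 0.52 and 1.01 (limma adjusted p = 0.434 and 0.531). Slc38a3 was at 0 in all 6 libraries, and Gnat1 had 2.15 in DMSO replicate 1 and 0 elsewhere. Sema3b was thus the only gene of this stretch to pass.

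The remaining tested ligands did not pass. Their log2 fold changes in LTK-14A against DMSO were -0.94 for Sema4f, -0.62 for Sema4a, -0.60 for Sema4c (a ligand of Plxnb2), -0.51 for Sema4g, -0.34 for Sema3a and -0.33 for Sema6b. They were 0.56 for Sema6a, 0.90 for Sema6c, 1.14 for Sema5a and 1.48 for Sema7a. All 4 tested class 4 members besides Sema4b thus had negative values, without passing. Sema4f, Sema6b and Sema7a stayed at or below a normalized value of 6.7 in every library, where a few steps make a large fold change. Of the exon bases of Sema4c, 7.27% are shared with D430040D24Rik on the opposite strand, and whether counting used the strand is not stated.

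The class 3 share of the summed ligand level was 63.1% and 57.2% in LTK-14A cells, 49.5% and 53.8% in DMSO cells, and 53.5% and 51.1% in untreated cells. The class 4 share was 20.9% and 24.5% in LTK-14A cells, 33.3% and 30.1% in DMSO cells, and 31.5% and 35.0% in untreated cells. Within class 3, the members in the lead differed between groups. Sema3f and Sema3c held the first 2 ranks in both LTK-14A libraries, with Sema3b at rank 3. In the DMSO libraries Sema3b ranked 8 and 7 and Sema3f 6 and 5, and in the untreated libraries Sema3b ranked 8 and 8 and Sema3f 6 and 6.

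Among the receptors, 1 of 11 rose and 1 fell in LTK-14A against DMSO, with a median log2 fold change of -0.08. Nrp2 (ENSMUSG00000025969, chr1:62703285-62818695, + strand) encodes the neuropilin that binds Sema3f and Sema3g. It had 2977 and 3010 in LTK-14A cells, against 1398 and 1479 in DMSO cells. The untreated cells had 1367 and 1382. Values within each group lay close together, and the DMSO values stood just above the untreated ones. Nrp2 rose against DMSO by a log2 fold change of 1.06 ± 0.10 (SE, n = 2 each; limma adjusted p = 0.00112).

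Nrp1 (ENSMUSG00000025810), the other neuropilin and a receptor for Sema3a, had 623 and 665 in LTK-14A cells and 694 and 652 in DMSO cells, with 757 and 698 in untreated cells. The LTK-14A and DMSO values overlapped, and the log2 fold change was -0.06 ± 0.12 (SE; limma adjusted p = 0.785). The ratio of Nrp2 to Nrp1, per kilobase, was 3.95 and 3.74 in LTK-14A cells, 1.66 and 1.87 in DMSO cells, and 1.49 and 1.63 in untreated cells. Nrp2 made up 19.8% and 19.8% of the summed receptor level in LTK-14A cells, 10.8% and 10.5% in DMSO cells, and 10.7% and 8.77% in untreated cells.

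Plxnd1 (ENSMUSG00000030123, chr6:115954811-115995005, - strand) had 1358 and 1297 in LTK-14A cells, against 1962 and 2359 in DMSO cells. The untreated cells had 2110 and 2564. The DMSO and untreated values overlapped, and both LTK-14A values lay below them. Against DMSO its log2 fold change was -0.70 ± 0.14 (SE, n = 2 each; limma adjusted p = 0.0235). It did not pass without any 1 of the 4 LTK-14A and DMSO libraries (adjusted p between 0.0793 and 0.177). Plxnd1 is also known as a receptor of endothelial cells. Of 8 endothelial markers, Emcn and Erg were at 0 in all libraries, Cdh5 was at 2.15 in DMSO replicate 1 and 0 elsewhere, and the summed value was 4.07 and 2.09 in LTK-14A cells, 16.0 and 10.7 in DMSO cells, and 9.21 and 7.72 in untreated cells.

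The other 2 abundant plexins did not pass. Plxna1 (ENSMUSG00000030084) had 3565 and 3656 in LTK-14A cells and 3133 and 3298 in DMSO cells, with 2870 and 3775 in untreated cells. Its log2 fold change against DMSO was 0.17 ± 0.15 (SE; limma adjusted p = 0.543). Of its exon bases, 10.7% are shared with Gm26811 on the opposite strand. Plxnb2 (ENSMUSG00000036606) had 2543 and 2570 in LTK-14A cells and 1822 and 1966 in DMSO cells, with 1718 and 2387 in untreated cells. Both LTK-14A values lay above the other 4, and the log2 fold change against DMSO was 0.43 ± 0.16 (SE; limma adjusted p = 0.139). Plxnb2 passed in the fit of the LTK-14A and DMSO groups alone (limma adjusted p = 0.0118) and without either untreated replicate 1 or untreated replicate 2 (0.0104 and 0.0108).

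The makeup of the plexin pool differed between groups accordingly. Plxnd1 made up 19.5% and 18.5% of the summed plexin level in LTK-14A cells, 29.7% and 32.4% in DMSO cells, and 32.8% and 30.8% in untreated cells. Plxnb2 made up 34.4% and 34.7% in LTK-14A cells, 26.1% and 25.5% in DMSO cells, and 25.2% and 27.1% in untreated cells. By level, the receptors ran Plxna1, Plxnb2, Nrp2, Plxnd1 in both LTK-14A libraries. In all 4 DMSO and untreated libraries they ran Plxna1, Plxnd1, Plxnb2, Nrp2.

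The remaining plexins were lower in level and did not pass. Plxna2 and Plxna3, further partners of neuropilins, had log2 fold changes of -0.14 and -0.23 in LTK-14A against DMSO. Plxnb1 had -0.86 ± 0.34 (SE; limma adjusted p = 0.156), at 22.2 and 17.1 in LTK-14A cells and 33.2 and 39.7 in DMSO cells. Plxnb3, Plxnc1 and Plxna4 were below 17 in every library, and their log2 fold changes were -0.55, -0.08 and 0.00 with standard errors of 0.64, 0.57 and 1.12.

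**Figure D3:**
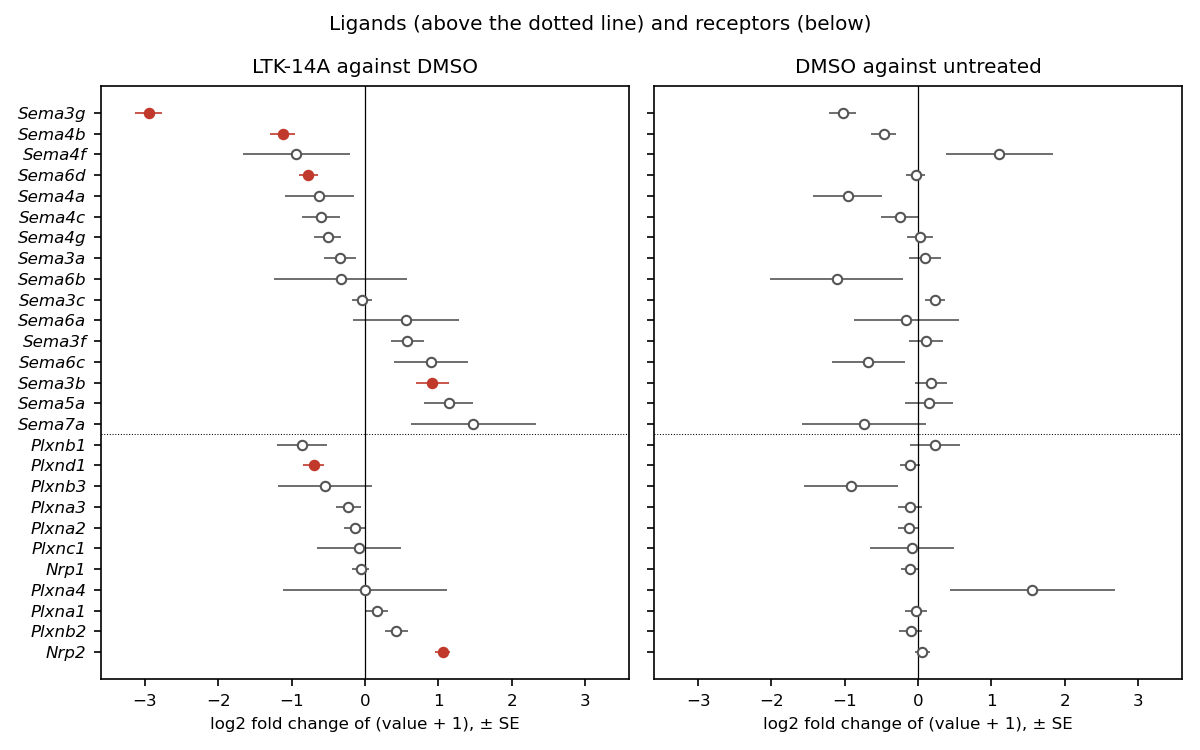
Log2 fold change of (value + 1) with its standard error for the 27 tested members, in LTK-14A against DMSO (left) and DMSO against untreated (right), with filled red points for members past the threshold. The left panel has 6 filled points, with Sema3g at -2.95 and Nrp2 at 1.06, and the right panel has none.

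Sema3g and Nrp2 are a ligand and its receptor that moved in opposite directions, and both passed in every alternative fit. Their promoters are shown for that reason, as RefSeq gives them on GRCm38.p6, from 250 bases before to 50 bases after the start, 5′ to 3′ on the gene's strand. Capitals mark the GC box GGGCGG, the core site of the Sp1 family, and the nuclear receptor half-site AGGTCA, each searched on both strands.
Sema3g, chr14:31217623-31217922, + strand: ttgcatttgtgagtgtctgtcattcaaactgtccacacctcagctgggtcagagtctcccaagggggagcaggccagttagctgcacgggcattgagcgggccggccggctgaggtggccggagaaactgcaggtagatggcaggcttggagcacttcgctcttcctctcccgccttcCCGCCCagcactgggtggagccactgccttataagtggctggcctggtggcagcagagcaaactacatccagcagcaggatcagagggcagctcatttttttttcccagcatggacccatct
Nrp2, chr1:62703067-62703366, + strand: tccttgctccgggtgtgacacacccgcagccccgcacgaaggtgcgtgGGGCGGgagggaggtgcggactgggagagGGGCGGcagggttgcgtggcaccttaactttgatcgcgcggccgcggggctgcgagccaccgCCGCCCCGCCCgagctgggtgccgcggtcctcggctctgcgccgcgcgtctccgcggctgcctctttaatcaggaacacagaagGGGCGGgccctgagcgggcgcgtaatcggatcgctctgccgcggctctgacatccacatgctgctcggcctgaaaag

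The Sema3g window held 1 GC box, 72 bases before the start, no half-site and 8 CpG dinucleotides. The Nrp2 window held 5 GC boxes, 2 of which overlap, no half-site and 37 CpG dinucleotides. Over all 32851 promoters of the table, 35.7% held a GC box, 16.3% held a half-site, and the median was 7 CpG dinucleotides. Of the 26 members with an entry in the table, 21 had a GC box and 7 a half-site in at least 1 of their windows. Some members have several windows, so these counts are not directly comparable with the shares over single promoters. The direct repeat AGGTCANAGGTCA, the form that PPAR and RXR pairs bind, was in 0.0396% of all promoters and in no member window. A match only says that these letters are present in the window.

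Summed over the ligands, the level per kilobase was 268 and 266 in LTK-14A cells, 339 and 340 in DMSO cells, and 398 and 425 in untreated cells. The 3 groups did not overlap, with LTK-14A lowest and untreated highest. Much of this order came from 1 gene, Sema3g, which averaged 6.45, 51.4 and 104 in LTK-14A, DMSO and untreated cells. The summed ligands averaged 267, 339 and 411. In DMSO against untreated, 7 of the 16 tested ligands had positive log2 fold changes and 9 negative ones. Taking the level of Sema3g off the summed ligands leaves the sums of DMSO and untreated cells overlapping. The sums of LTK-14A cells stay below both. Summed over the receptors, the level per kilobase was 1272 and 1282 in LTK-14A cells, 1092 and 1190 in DMSO cells, and 1075 and 1330 in untreated cells. Here untreated replicate 2 was the highest and untreated replicate 1 the lowest. The ratio of ligands to receptors was 0.211 and 0.207 in LTK-14A cells, 0.310 and 0.285 in DMSO cells, and 0.370 and 0.319 in untreated cells. This gives 0.209 ± 0.00285, 0.298 ± 0.0177 and 0.345 ± 0.0356 in the 3 groups (SD, n = 2 each). The ratio is a description with no test, since an exact two-sided permutation test of 2 samples against 2 cannot go below p = 0.333.

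**Figure D4:**
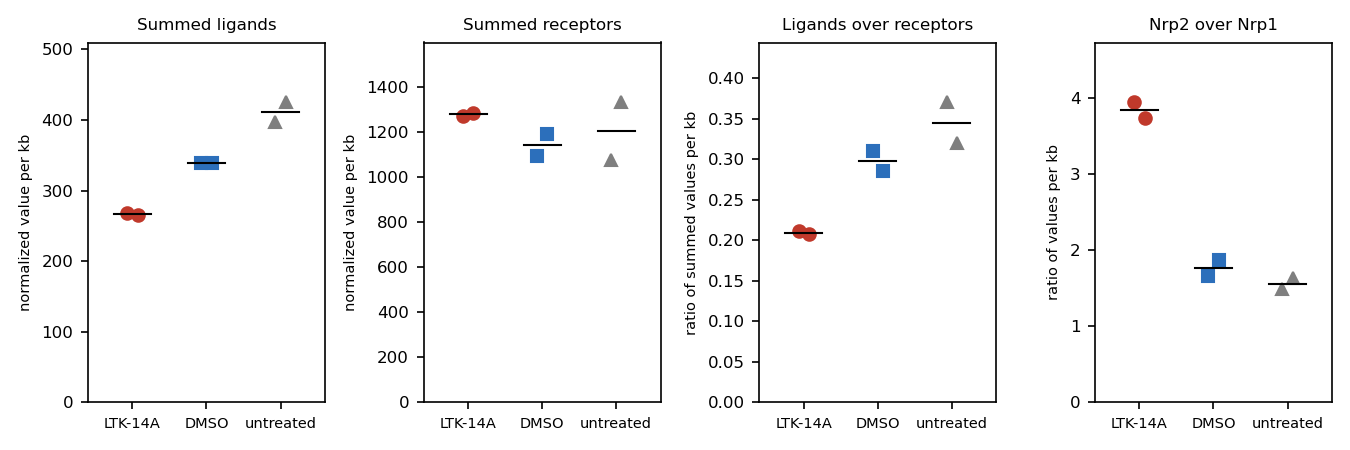
Summed ligand level, summed receptor level, their ratio and the ratio of Nrp2 to Nrp1 in each library, per kilobase of exon, with a line at the group mean (n = 2 each) and axes starting at 0. The ratio of ligands to receptors is 0.207 to 0.211 in LTK-14A cells and 0.285 to 0.370 in the other 4 libraries, and that of Nrp2 to Nrp1 is 3.74 to 3.95 and 1.49 to 1.87.

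DMSO cells were set against untreated cells to ask what the solvent changed. None of the 27 members passed, against 0.0249% of all genes tested, and 2 had an unadjusted limma p below 0.05. One was Sema3g, with 207 and 260 in DMSO cells and 486 and 460 in untreated cells. The groups were separate and the log2 fold change was -1.03 ± 0.18 (SE, n = 2 each), but over all genes the limma adjusted p was 0.672. The other was Sema4b, with 305 and 296 in DMSO cells and 389 and 445 in untreated cells, a log2 fold change of -0.47 ± 0.17 (SE; limma adjusted p = 0.804). For Nrp2 the log2 fold change was 0.06 ± 0.10, for Plxnd1 -0.11 ± 0.14, for Sema6d -0.03 ± 0.13 and for Sema3b 0.18 ± 0.22 (SE). The median over the members was -0.10.

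LTK-14A cells were also set against untreated cells. This comparison uses the same 2 LTK-14A libraries as the one against DMSO, so it adds no independent libraries on that side. In it, 7 of the 27 members passed (25.9%), against 12.9% of all genes. Of these, 3 were higher, against 4.68% of all genes, and 4 were lower, against 8.17%. The log2 fold changes were 1.12 for Nrp2, 1.09 for Sema3b, -3.97 for Sema3g, -1.59 for Sema4b, -0.79 for Sema6d and -0.81 for Plxnd1 (limma adjusted p between 3.83e-05 and 0.0168). Their values against DMSO, in the same order, were 1.06, 0.92, -2.95, -1.12, -0.77 and -0.70. Among genes with a mean of at least 20, 9 of 19 members passed against untreated cells, against 30.1% of 13179 genes.

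Sema5a was the seventh to pass against untreated cells and is named because it passed there. It encodes a membrane-bound ligand of Plxnb3, and Plxnb3 itself had at most 13.8 in any library. Sema5a had 130 and 124 in LTK-14A cells, 79.5 and 40.6 in DMSO cells, and 59.0 and 44.6 in untreated cells. Both LTK-14A values lay above the other 4, and the DMSO libraries lay far apart. The log2 fold change was 1.29 against untreated (limma adjusted p = 0.0445) and 1.14 against DMSO (limma adjusted p = 0.0723). Without untreated replicate 2, Plxna1, Plxnb2 and Sema3f passed as well and Sema5a did not, and without untreated replicate 1 Sema4c passed. Without either LTK-14A library, only Nrp2, Sema3g and Sema4b of the 7 passed.

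Proteins that work with plexins inside the cell were followed as a list of 36 genes, of which 34 were tested. In LTK-14A against DMSO, 5 rose and 2 fell, or 20.6% of those tested against 10.6% of all genes, with a median log2 fold change of 0.03. Most of the tested genes had a mean of at least 20, and among all genes with such a mean 24.4% passed. Those that rose were Pak1 by 1.12, Mical2 by 1.09, Dpysl3 by 1.03, Farp1 by 0.97 and Dpysl2 by 0.57 on the log2 scale (limma adjusted p between 0.00476 and 0.0226). Pak1 is a kinase that acts on actin, Mical2 an oxidase of the family that takes actin filaments apart, Farp1 an exchange factor that binds plexin A proteins, and Dpysl2 and Dpysl3 encode collapsin response mediator proteins. Mical2 had 699 and 561 in LTK-14A cells and 300.2 and 287 in DMSO cells, with 294 and 328 in untreated cells. Farp1 had 431 and 445 in LTK-14A cells and 223 and 223 in DMSO cells, with 241 and 282 in untreated cells.

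Those that fell were Mical3 and Rnd2. Mical3, a relative of Mical2, had 831 and 876 in LTK-14A cells and 1606 and 1656 in DMSO cells, with 1672 and 1972 in untreated cells, a log2 fold change against DMSO of -0.93 (limma adjusted p = 0.00381). Rnd2, a small GTPase of the Rnd family that acts on plexins, had 76.0 and 81.0 in LTK-14A cells and 149.9 and 138 in DMSO cells, with 143 and 181 in untreated cells, a log2 fold change of -0.87 (limma adjusted p = 0.0275). Rhoa, a GTPase downstream of class B plexins, had a log2 fold change of 0.01 (limma adjusted p = 0.969). Of these 7 calls, those of Mical2 and Mical3 held in 1 of the 4 fits without an LTK-14A or DMSO library, and the other 5 held in none. Rnd2 did not pass after quantile normalization either (limma adjusted p = 0.0513).

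A second list held 23 co-receptors and other ligands of these receptors, of which 19 were tested, with 1 higher and 1 lower in LTK-14A against DMSO and a median log2 fold change of 0.00. The share that passed, 10.5%, was close to the 10.6% of all genes. Vegfa, which encodes a growth factor that binds both neuropilins, had 1581 and 1479 in LTK-14A cells and 2196 and 2237 in DMSO cells, with 2506 and 2768 in untreated cells. Its log2 fold change against DMSO was -0.54 (limma adjusted p = 0.024). Itgb1, the integrin subunit through which Sema7a can act, had 3096 and 3021 in LTK-14A cells and 2313 and 2186 in DMSO cells, with 2147 and 1982 in untreated cells. Its log2 fold change against DMSO was 0.44 (limma adjusted p = 0.0429). Neither gene passed in any of the 4 fits without an LTK-14A or DMSO library, and Itgb1 did not pass after quantile normalization (limma adjusted p = 0.0916). Met, a co-receptor of class B plexins, had a log2 fold change of 0.00 (limma adjusted p = 0.998).

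Of the 4 proprotein convertases that can cut class 3 semaphorins, Furin and Pcsk7 were tested and did not pass. Furin had 1152 and 1268 in LTK-14A cells and 867 and 945 in DMSO cells, a log2 fold change of 0.42 (limma adjusted p = 0.147). Pcsk7 had 136 and 101 in LTK-14A cells and 178 and 167 in DMSO cells, a log2 fold change of -0.55 (limma adjusted p = 0.122).

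Other guidance families were set beside the semaphorins. Among 18 slits, netrins and their receptors, 9 were tested, and 3 rose and 1 fell in LTK-14A against DMSO (44.4%, against 10.6% of all genes). The median log2 fold change of these 9 was 0.09, against -0.05 over all genes. The netrin receptors Unc5b, Unc5c and Neo1 rose by 1.14, 0.71 and 0.66 on the log2 scale, and the Robo ligand Slit2 had a log2 fold change of -0.56 (limma adjusted p between 0.0136 and 0.0283). Unc5b had 541 and 433 in LTK-14A cells and 239 and 200.2 in DMSO cells, with 212 and 324 in untreated cells. All 4 calls were lost in each fit without an LTK-14A or DMSO library. Among 22 ephrins and Eph receptors, 18 were tested and none passed by limma, with 3 at an unadjusted p below 0.05. In DMSO against untreated, limma called no gene of the 5 lists of partners and other guidance families.

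Markers of other cell types were read beside these results. Among 11 preadipocyte and fibroblast markers, 4 were higher in LTK-14A than in DMSO cells (Fn1, Vim, Thy1 and Dlk1), against 3.98% of all genes, and 7 did not pass. Of those 7, Ly6a, Pdgfra, Pdgfrb and Col3a1 had negative log2 fold changes, of -0.27 to -0.12. The summed value of the list was 137481 and 143949 in LTK-14A cells, 89569 and 97310 in DMSO cells, and 94619 and 150694 in untreated cells. Ptprc, Itgam and Cd3e, markers of leukocytes, were at 0 in all libraries. The sum of that list was 87.9 and 84.6 in LTK-14A cells, 55.0 and 68.5 in DMSO cells, and 47.2 and 60.2 in untreated cells. Within it Cd68 was higher in LTK-14A than in DMSO cells, with a log2 fold change of 1.97, and Lyz2 was lower, with -3.57. The sum of 10 neuron and glia markers was 56.9 and 58.8 in LTK-14A cells, 98.2 and 119 in DMSO cells, and 38.2 and 22.1 in untreated cells. None passed by limma in any comparison. At an unadjusted limma p below 0.05 were 5 in LTK-14A against DMSO and 5 in DMSO against untreated, with median log2 fold changes of -1.35 and 1.63. In LTK-14A against untreated there were 2. Of the epithelial markers, Epcam, Cdh1 and Krt8 were at 0 in all libraries. The part of the fibroblast and adipocyte markers in the results above was not tested.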

How the data were processed

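RNA of 6 samples was sequenced. The deposited table gives coordinates and 1 value per sample for 53342 Ensembl genes on mm10, per the submitters' processing notes. Which aligner, counter, strand setting and normalization were used is not given in the sources here. The library kit was stranded and depleted ribosomal RNA, per the labels' protocols. The deposited values are log10 values of log2 normalized counts, as read from the values themselves. They were turned back as 2 to the power of 10 to the power of the value, and a 0, the placeholder for at most 1, stayed 0. Of the low values, 24.9% to 29.5% per library were whole multiples of the step to within 0.01, so reads could not be recovered, no count test was used, and no counting interval is given.

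The test used log2(value + 1), which understates fold changes of low genes, on the 24139 genes that reached 1 in 2 or more samples. One limma 3.58.1 model (R 4.3.3) with a mean per group took in all 6 samples, with variance trend, without a replicate term, two-sided, with Benjamini-Hochberg adjustment over all genes at 0.05. The fit was tested on simulated data. Levels per kilobase used the union of exons in GENCODE vM21, which had 53237 of the identifiers and the same coordinates for 32 of the 34 members (not Sema4d and Plxnb2). Promoters came from RefSeq (GRCm38.p6) for 26 members, not for Plxna1, Plxna4, Sema3b, Sema3f and Sema6a.

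Members and lists were chosen with earlier results of these data known, so a list is described by its counts and median and has no test of its own. Named with all values were members past the threshold in LTK-14A against DMSO or in DMSO against untreated, and the 10 tested members with the highest level per kilobase. From each list, genes past the threshold were named; Rhoa, Met, Furin, Pcsk7 and Sema5a were added after their values were seen. One marker gene is not reported here. Alternatives were quantile normalization, no trend, other filters, a 2-fold minimum, a replicate block, rescaling after removal of ribosomal and small RNA loci, a pseudocount of 0.1, fits of only the compared groups, and each library left out. Python 3.11.15 was used for tables.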

Additional observations from a re-analysis of the deposited data

How the results depend on the processing

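In LTK-14A against DMSO, Sema3g and Nrp2 passed in all 8 alternative fits and all 6 fits without 1 library (log2 fold changes of -3.11 to -2.78 and 0.98 to 1.10), while Sema4b, Sema6d, Plxnd1 and Sema3b lost their calls without the variance trend (limma adjusted p = 0.0654, 0.0971, 0.153 and 0.107). The counts of members higher and lower, 2 and 4, became 1 and 1 without the trend and 1 and 2 with a 2-fold minimum, and ranged over 1 to 3 and 1 to 4 with each library left out. All-gene calls were 591 to 829 without an LTK-14A or DMSO library, 3618 and 3629 without an untreated one, and 1205 without the trend, against 2548. In LTK-14A against untreated they were 867 to 4016 with each library left out, 1387 without the trend and 2044 in the compared groups alone, against 3103. In DMSO against untreated they were 0 to 109, against 6. Sema5a also passed against DMSO with a mean of at least 20 (adjusted p = 0.0228). In LTK-14A against untreated, 3 higher and 4 lower members became 1 and 2 without the trend, with 2 lower at a 2-fold minimum, and ranged over 1 to 5 and 2 to 5 with each library left out. In DMSO against untreated, no fit called a member. The sign of Sema3c, which never passed, turned to 0.05 without LTK-14A replicate 2 and 0.06 without DMSO replicate 1, within a range of -0.13 to 0.06. A fit without 1 library leaves 1 library in that group, so its calls rest on fewer samples. The cause of these shifts was not tested. Of 502 alternative values for 34 named genes and comparisons, 383 kept direction and side of the threshold, 112 kept direction but no longer passed, 5 newly passed and 2 turned sign.

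The ligand to receptor ratio was 0.157, 0.228 and 0.25 in LTK-14A, DMSO and untreated cells without division by length. It was 0.238, 0.356 and 0.433 without Sema3c and Plxna1, the ligand and the receptor with the highest mean level. Neither of these passed in LTK-14A against DMSO. Sema3g, the member that differed most there, was not left out in these alternatives. Taking its level off the summed ligands leaves the ratios of DMSO and untreated cells overlapping, with those of LTK-14A cells lowest. With 1 library of a group the ratio ranged over 0.207 to 0.211, 0.285 to 0.310 and 0.319 to 0.370.

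Deviations of same-numbered samples correlated at 0.0518, -0.018 and 0.167 over the 3 pairs of groups. With 2 samples per group, these values cannot tell whether same-numbered samples shared a culture or a day. A replicate block gave 3 higher and 4 lower members in LTK-14A against DMSO, with Sema5a added (adjusted p = 0.0377), 2635 genes in all, and 0 members in DMSO against untreated.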
